A study of Caenorhabditis elegans with 9 samples.

Results

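The *ssp*, *ssq*, *sss* and *nspd* genes of *Caenorhabditis elegans* encode families of small proteins named for their expression in sperm (sperm-specific families, classes P, Q and S) or for being found in nematodes (nematode-specific peptides, group D). Members were taken as every gene whose symbol begins with *ssp*, *ssq*, *sss* or *nspd* followed by a number, matched to the gene identifiers of the count tables through the Ensembl and RefSeq annotations of build WBcel235. The rule found 27 of the 31106 genes counted, of which 12 were *ssp*, 4 were *ssq*, 1 was *sss* and 10 were *nspd* genes, and all 27 were annotated as protein coding. mRNA was sequenced from pools of synchronized whole worms, collected as 1-day-old adults at 20 °C, 68 h after arrest at the first larval stage, in 3 libraries of each of 3 genotypes. The genotypes were wild-type (strain N2), *hrde-1(tm1200)* on chromosome III (strain USC661), and *hrde-2(qe20)* on chromosome V, also written *hrde-2/enri-3(qe20)* (strain FD53). Each mutant was a single allele in a single strain, and RNA came from whole animals, so that germ line and soma were measured together.

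A *C. elegans* hermaphrodite makes its sperm as a late larva and then switches for the rest of its life to making oocytes, while the stored sperm fertilise them. Sperm genes are transcribed while spermatocytes develop, and mature sperm are largely silent in transcription. The abundant proteins of nematode sperm are the major sperm proteins (MSPs), which assemble into the fibres that drive the crawling sperm, and SSP-19 is a small protein with an MSP-like fold. HRDE-1 is a nuclear Argonaute protein that uses small RNAs to silence genes in the germ line, and HRDE-2 is a germ granule protein that binds it. The comparisons asked how the transcripts of these families differed when either protein was lost, and whether the families differed from one another.

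Sequencing depth lay between 5801326 and 11884233 counts per library, of which the 27 members took between 492 and 11247. Levels are given as CPM, counts per 1000000 of the library size after scaling by the trimmed mean of M-values (TMM), and 3 counts corresponded to between 0.248 and 0.537 CPM. The mutated genes followed their labels: *hrde-1* lay at 108 to 144 CPM in *hrde-1* mutants and 200 to 355 CPM in wild-type (log2 fold change -1.17 ± 0.22 SE, adjusted p = 0.0169), and *hrde-2* lay at 14.3 to 19.3 CPM in *hrde-2* mutants and 22.9 to 52.1 CPM in wild-type (-1.25 ± 0.27, adjusted p = 0.0104). Wild-type replicate 1 stood apart from its group. Its log2 CPM correlated with wild-type replicates 2 and 3 across genes at r = 0.935 and 0.937, against 0.979 between those libraries, and its oocyte and eggshell genes summed to 3432 CPM against 8265 and 7335 CPM. Of the 24 members tested, 23 were highest in that library among the wild-type libraries. Ratios of the families' sums and counts of members called against wild-type are therefore also given without it. Medians and calls of the other gene lists used all wild-type libraries.

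The members were spread over all autosomes, and 0 of the 5761 genes on chromosome X were members, although 13.4% of the genes tested were on it. Chromosome IV carried 15 members (*nspd-2*, *nspd-3*, *nspd-6*, *nspd-7*, *ssp-9*, *ssp-10*, *ssp-11*, *ssp-32*, *ssp-34*, *ssp-36*, *ssq-1*, *ssq-2*, *ssq-3*, *ssq-4* and *sss-1*), against 17.2% of the genes tested. Chromosome I carried 7 (*nspd-1*, *nspd-8*, *nspd-10*, *ssp-16*, *ssp-19*, *ssp-31* and *ssp-37*), chromosome II 2 (*nspd-4* and *nspd-5*), chromosome III 1 (*nspd-9*) and chromosome V 2 (*ssp-33* and *ssp-35*). They were short genes, with a median exonic length of 424 bp against 1373 bp over the genes tested, and 22 were under 600 bp, a size that 10.9% of tested genes had. A single exon block made up 19 of them. No member overlapped another annotated gene, so no reads were lost or shared through overlap, whereas reads that fit several near-identical members were not counted by the authors, which makes the values of single members uncertain.

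Members of different families were neighbours. With a gap of at most 50 kb between starts and ends, 17 members fell into 6 groups. The largest, on chromosome IV from 9844014 to 9896147 (52.1 kb), held *nspd-2*, *ssp-10*, *ssq-1*, *sss-1* and *ssp-32*, so that every family was represented in it. A second group on chromosome IV, from 4994324 to 5017741 (23.4 kb), held *ssp-9*, *ssq-2*, *ssp-11* and *ssq-4*. The remaining groups were pairs: *nspd-3* with *nspd-6* (chromosome IV, 5162743 to 5165777), *nspd-4* with *nspd-5* (chromosome II, 4842560 to 4860411), and *nspd-1* with *ssp-16* and *nspd-8* with *ssp-19* on chromosome I. All 31 *msp* genes of the tables lay on chromosomes II (13) and IV (18), and 9 members lay within 50 kb of one, the closest being *ssp-36* (0.308 kb from *msp-79*), *ssp-32* (0.349 kb from *msp-77*) and *sss-1* (0.816 kb from *msp-77*).

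Summed over its members, each family was lowest on average in wild-type, intermediate in *hrde-1* and highest in *hrde-2*. The 12 *ssp* genes summed to 48.1, 19.4 and 20.8 CPM across wild-type replicates 1 to 3, to 45.4, 58.8 and 61.9 across *hrde-1* and to 123, 138 and 108 across *hrde-2*. The 4 *ssq* genes summed to 90.7, 37.9 and 36.4 CPM across wild-type, to 88.4, 144 and 140 across *hrde-1* and to 274, 344 and 298 across *hrde-2*. In every family all *hrde-2* libraries lay above all libraries of both other genotypes, while the *hrde-1* and wild-type libraries overlapped through wild-type replicate 1. The single gene *sss-1* had 15.9, 5.14 and 4.30 CPM across wild-type, 12.2, 17.8 and 13.5 across *hrde-1* and 59.3, 68.0 and 42.6 across *hrde-2*. The 10 *nspd* genes summed to 94.4, 31.6 and 26.7 CPM across wild-type, to 66.0, 118 and 115 across *hrde-1* and to 276, 394 and 279 across *hrde-2*. The 4 *ssq* genes and the 10 *nspd* genes summed to similar levels in *hrde-2* (305 ± 36.0 and 317 ± 67.5 CPM, mean ± SD, n = 3).

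**Figure D1:**
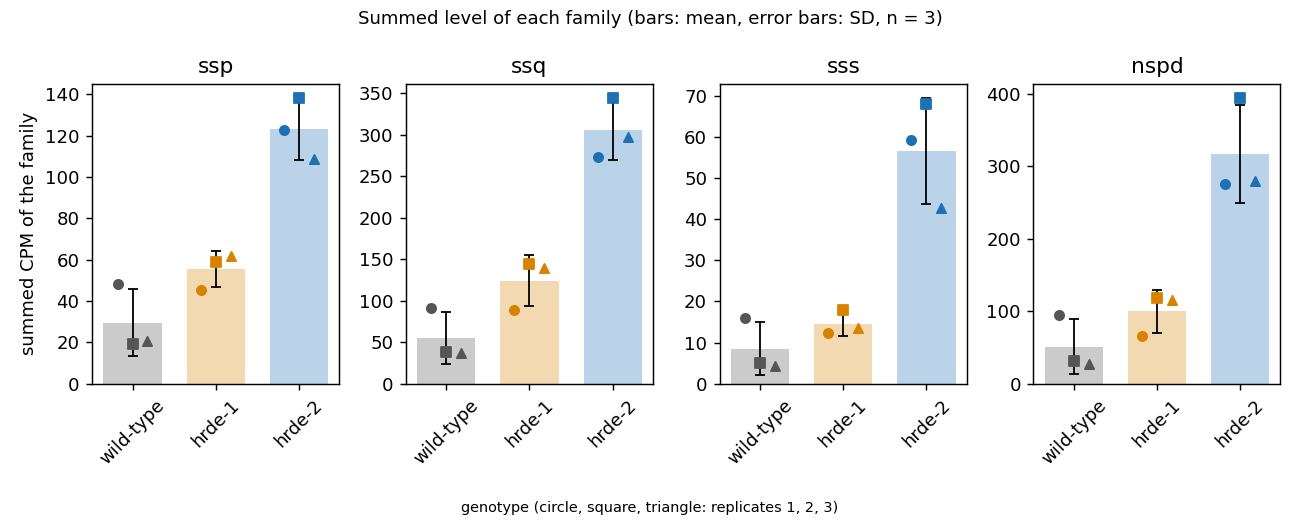
Summed level of each family in CPM (vertical axis, from 0, a separate scale for each family) in wild-type, *hrde-1* and *hrde-2* libraries. Bars are means with SD over 3 libraries, and circles, squares and triangles are replicates 1, 2 and 3. In all 4 families the *hrde-2* libraries lie above every other library, and wild-type replicate 1 lies above wild-type replicates 2 and 3.

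As ratios of group means, the summed level in *hrde-2* over wild-type was 4.19 for *ssp*, 5.55 for *ssq*, 6.71 for *sss* and 6.22 for *nspd*, and without wild-type replicate 1 it was 6.13, 8.22, 12 and 10.9. The ratio of *hrde-1* over wild-type was 1.88, 2.26, 1.72 and 1.96 in the same order, and 2.76, 3.35, 3.07 and 3.42 without that library. These sums were not tested, and the comparisons of the mutants with wild-type share the same wild-type libraries. The smallest ratio in *hrde-2*, that of *ssp*, rested on *ssp-37*, the tested member with a negative log2 fold change against wild-type in that mutant. Without this gene, left out after its values were seen, the *ssp* ratio in *hrde-2* was 6.09, and 11.1 when wild-type replicate 1 was left out too, both above those of *ssq*. Because whole worms were sequenced, more cells that hold these transcripts and more transcript per cell cannot be told apart.

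Counts were enough to test 24 members among 12141 genes. The *nspd-8* gene had no count in any library. The *ssp-32* gene had 2, 0 and 1 counts in wild-type replicates 1 to 3, 0, 1 and 1 in *hrde-1* and 6, 9 and 9 in *hrde-2*, and *ssp-36* had 7, 0 and 0, then 0, 1 and 2, and then 7, 6 and 11 counts. Both were close to the limit of detection in wild-type and *hrde-1* libraries. Of the tested members, *ssp-9* was the only one that passed the filter on low counts through its *hrde-2* libraries, while the other 23 also passed it on the wild-type and *hrde-1* libraries alone.

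Compared per kilobase of exon, so that genes of different length can be set side by side, the most abundant members were *nspd* genes. In *hrde-2* the mean level was 238 ± 44.2 CPM per kb for *nspd-2* (SD, n = 3), 189 ± 43.4 for *nspd-1*, 124 ± 28.6 for *nspd-7* and 103 ± 33 for *nspd-5*, and each of these overlapped its neighbour within 1 SD. The genes *ssq-1*, *nspd-10*, *ssp-10*, *ssq-4* and *ssq-2* followed between 88.6 and 78.2 CPM per kb, each within 1 SD of the next, and *sss-1* reached 59.7 ± 13.6 CPM per kb. The lowest tested member was *ssp-9* at 6.29 ± 1.73 CPM per kb. In wild-type the order began in the same way, with *nspd-2* at 42.4 ± 32.7 and *nspd-1* at 36.0 ± 35.6 CPM per kb, but *ssp-37* stood near them at 23.5 ± 3.57 CPM per kb and *nspd-10* was among the low members at 4.42 ± 3.64. Over the 24 tested members, the order of levels was alike between libraries. The rank correlation between 2 libraries was 0.902 to 0.991 within a genotype and 0.755 to 0.913 between genotypes, where all points share the length and base composition of the same genes.

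**Figure D2:**
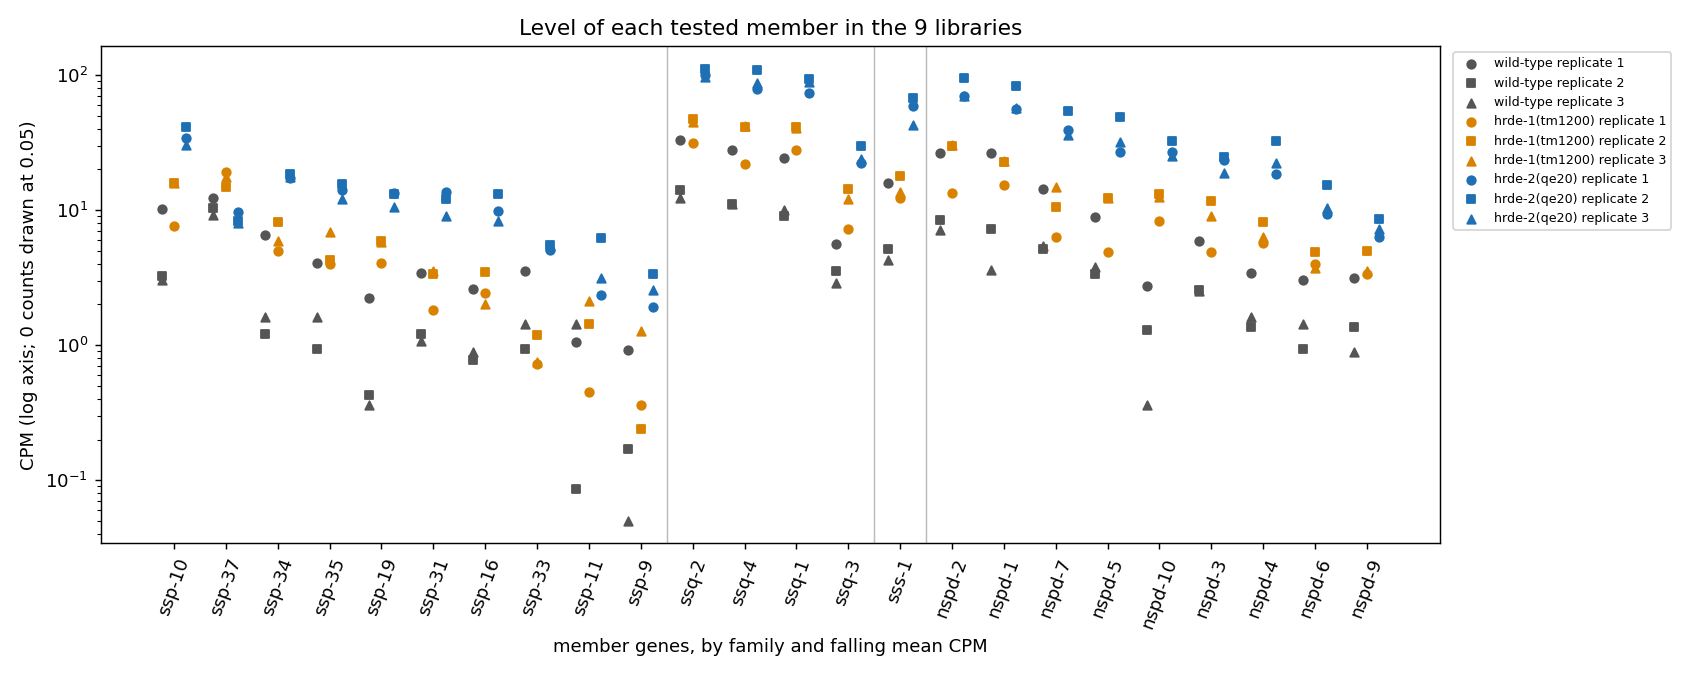
Level of each tested member in CPM (vertical log axis, with a count of 0 drawn at 0.05 CPM) in the 9 libraries. Members are ordered by family and falling mean, grey stands for wild-type, orange for *hrde-1* and blue for *hrde-2*, and circles, squares and triangles are replicates 1, 2 and 3. For 23 of the 24 members the blue points lie above all grey and orange points, and *ssp-37* is the exception.

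In *hrde-2* mutants the families were raised almost throughout. Against wild-type, 21 of the 24 tested members rose and 0 fell, with a median log2 fold change of 2.60 against -0.0969 over all 12141 genes. Across all genes, 7.57% were called higher and 4.25% lower in this comparison. All 9 tested *nspd* genes, all 4 *ssq* genes and *sss-1* rose, as did 7 of the 10 tested *ssp* genes. The *ssp-9* gene passed the filter only through its *hrde-2* libraries and so was selected for high levels there. Leaving it out, 20 of 23 members and 6 of 9 *ssp* genes rose, with the median again 2.60. In 23 members, *ssp-9* among them, every *hrde-2* library lay above every wild-type library, which was true of 15.7% of the genes tested. Without wild-type replicate 1, 22 members were called higher with a median of 3.42, and 13.4% of all genes were.

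The *ssq* genes, all on chromosome IV, were, with *sss-1*, the longest genes of the set, and they formed the most uniform family. The level of *ssq-2* was 33.2, 14.1 and 12.4 CPM across wild-type replicates 1 to 3, 31.1, 47.6 and 45 across *hrde-1* and 99.6, 112 and 97.4 across *hrde-2*. *ssq-4* stood at 27.8, 11.1 and 11.1 CPM across wild-type, at 22.1, 41.1 and 41.9 across *hrde-1* and at 78.5, 109 and 87.6 across *hrde-2*. Both lay in the same range, and in both wild-type replicate 1 overlapped the *hrde-1* libraries while no *hrde-2* library overlapped any other. For *ssq-1*, wild-type libraries had 24.1, 9.09 and 10.0 CPM, *hrde-1* libraries 28.0, 41.5 and 40.8 CPM and *hrde-2* libraries 73.1, 93.9 and 89.1 CPM. The level of *ssq-3* was 5.64, 3.52 and 2.87 CPM across wild-type replicates 1 to 3, 7.24, 14.3 and 12.2 across *hrde-1* and 22.4, 29.8 and 23.7 across *hrde-2*. The levels of *ssq-3* were lower than those of the other *ssq* genes in each library, and for *ssq-1* and *ssq-3* all *hrde-1* libraries lay above all wild-type libraries. Against wild-type in *hrde-2*, the log2 fold changes of the family lay between 2.37 ± 0.33 SE (*ssq-2*, adjusted p = 7.79e-04) and 2.65 ± 0.33 (*ssq-3*, adjusted p = 4.36e-04), a span smaller than the SE of any single member. The *sss-1* gene, the only member of its class, rose by 2.74 ± 0.41 on the log2 scale (adjusted p = 0.00110).

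Among the *nspd* genes the abundant members behaved alike and the less abundant ones spread more widely. *nspd-2* stood at 26.5, 8.40 and 7.17 CPM across wild-type, at 13.4, 29.8 and 30.2 across *hrde-1* and at 70.4, 95.7 and 70.4 across *hrde-2*. For *nspd-1*, wild-type libraries had 26.4, 7.20 and 3.58 CPM, *hrde-1* libraries 15.2, 22.7 and 23.2 CPM and *hrde-2* libraries 55.6, 82.3 and 57.3 CPM. The level of *nspd-7* was 14.4, 5.14 and 5.37 CPM across wild-type replicates 1 to 3, 6.33, 10.5 and 14.7 across *hrde-1* and 38.8, 54.3 and 35.8 across *hrde-2*. In these abundant members wild-type replicate 1 reached or exceeded *hrde-1* replicate 1, and the *hrde-2* libraries were all above both. They rose in *hrde-2* by 2.49 ± 0.45 (*nspd-2*, adjusted p = 0.00347), 2.39 ± 0.51 (*nspd-1*, adjusted p = 0.00951) and 2.37 ± 0.41 (*nspd-7*, adjusted p = 0.00254) on the log2 scale. The call of *nspd-1* was lost when wild-type replicate 2 or *hrde-2* replicate 2 was left out, with adjusted p-values between 1.22e-05 and 0.0659 over the libraries left out in turn.

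Of the less abundant *nspd* genes, *nspd-10* and *nspd-4* stood out by the size of their change. *nspd-10* stood at 2.75, 1.29 and 0.358 CPM across wild-type, at 8.23, 13.1 and 12.5 across *hrde-1* and at 26.9, 32.4 and 25.2 across *hrde-2*. Its level in wild-type was near the limit of detection in replicate 3, and the 3 genotypes did not overlap. For *nspd-4*, wild-type libraries had 3.41, 1.37 and 1.61 CPM, *hrde-1* libraries 5.70, 8.12 and 6.29 CPM and *hrde-2* libraries 18.5, 32.5 and 22.4 CPM. The 3 genotypes did not overlap for *nspd-4* either, although its physical neighbour *nspd-5* overlapped between wild-type and *hrde-1*. The change in *hrde-2* was 4.21 ± 0.44 for *nspd-10* (adjusted p = 2.42e-04), the largest of the 24 members, and 3.53 ± 0.38 for *nspd-4* (adjusted p = 2.57e-04), while the other *nspd* genes tested lay between 2.01 (*nspd-9*) and 2.75 (*nspd-5*).

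The *ssp* genes were the most varied family, from a log2 fold change of -0.30 (*ssp-37*) to 3.61 (*ssp-19*) in *hrde-2* against wild-type. The level of *ssp-10* was 10.2, 3.26 and 3.05 CPM across wild-type replicates 1 to 3, 7.60, 15.8 and 15.9 across *hrde-1* and 34.2, 40.9 and 30.2 across *hrde-2*. This was the *ssp* gene with the highest mean over the 9 libraries, and it rose by 2.67 ± 0.44 (adjusted p = 0.00191). *ssp-34* stood at 6.56, 1.20 and 1.61 CPM across wild-type, at 4.98, 8.12 and 5.86 across *hrde-1* and at 17.3, 18.6 and 17.4 across *hrde-2*. For *ssp-19*, wild-type libraries had 2.23, 0.429 and 0.358 CPM, *hrde-1* libraries 4.07, 5.85 and 5.76 CPM and *hrde-2* libraries 13.4, 13.2 and 10.5 CPM. Its level in wild-type was near the limit of detection in replicate 3. For *ssp-34* only the *hrde-2* libraries stood clear of the rest, whereas for *ssp-19* the 3 genotypes did not overlap. They rose by 2.52 ± 0.50 (*ssp-34*, adjusted p = 0.00601) and 3.61 ± 0.52 (*ssp-19*, adjusted p = 9.26e-04). Among the others, *ssp-16*, *ssp-31* and *ssp-35* rose by between 2.60 and 2.87. The value of *ssp-9*, a description because of how it passed the filter, was 2.79 ± 0.82 (adjusted p = 0.0429), a call that was lost when wild-type replicate 2 or 3 or any of the *hrde-2* libraries was left out (adjusted p up to 0.152).

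Exceptions to the rise in *hrde-2* were all *ssp* genes. The neighbouring *ssp-11* missed the threshold at 2.32 ± 0.76 (adjusted p = 0.0659), with 2.35, 6.22 and 3.14 CPM in *hrde-2* against 1.05, 0.0857 and 1.43 CPM in wild-type, and of the fits that left out a library it was called only in that without *hrde-1* replicate 1 (adjusted p = 0.0475). The level of *ssp-33* was 3.54, 0.943 and 1.43 CPM across wild-type replicates 1 to 3, 0.724, 1.19 and 0.746 across *hrde-1* and 5.03, 5.55 and 5.45 across *hrde-2*. All *hrde-2* libraries of *ssp-33* were above the wild-type libraries and all but 1 of the *hrde-1* libraries were below them, and the gene missed the threshold in *hrde-2* (1.45 ± 0.47, adjusted p = 0.0645) and had a negative value in *hrde-1* (-1.14 ± 0.53, adjusted p = 0.275). Without wild-type replicate 1, *ssp-33* was called in *hrde-2* (2.29, adjusted p = 0.00268). *ssp-37* stood at 12.3, 10.4 and 9.14 CPM across wild-type, at 19, 14.8 and 17.6 across *hrde-1* and at 9.74, 8.24 and 8.01 across *hrde-2*. This gene was the only tested member whose mean was highest in *hrde-1* and lowest in *hrde-2*, its wild-type libraries lay closer together, relative to their mean, than those of the other members, and its change in *hrde-2* against wild-type was -0.30 ± 0.24 (adjusted p = 0.451).

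**Figure D3:**
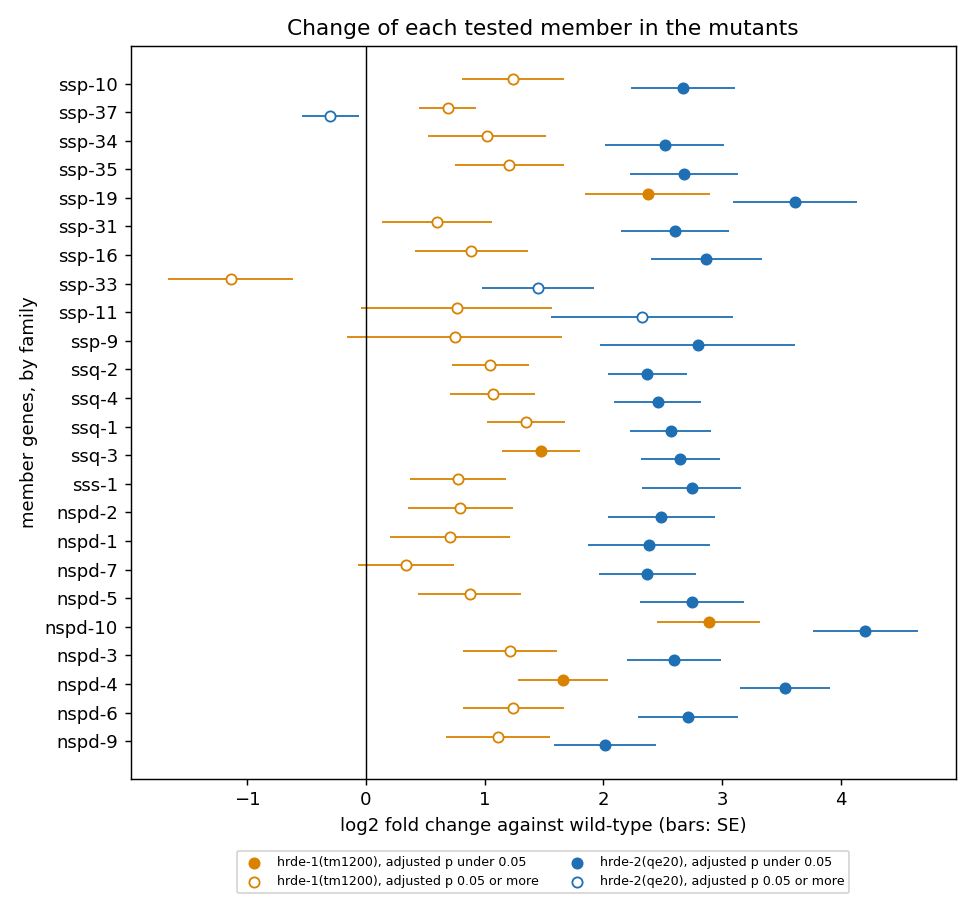
Log2 fold change of each tested member against wild-type (horizontal axis, bars are SE) in *hrde-1* (orange) and *hrde-2* (blue). Filled points passed an adjusted p of 0.05 and open points did not. The blue points are filled for 21 members and the orange points for *nspd-10*, *nspd-4*, *ssp-19* and *ssq-3*, with *ssp-33* to the left of 0 in *hrde-1* and *ssp-37* in *hrde-2*.

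In *hrde-1* mutants the same families had smaller values, and few passed the test. Against wild-type, 4 of the 24 tested members rose and 0 fell, and the median log2 fold change was 1.03 against -0.0310 over all genes. Of the 24 values, 23 were positive, and 13 had an unadjusted p under 0.05 by edgeR. Over the 12141 genes tested, 47.7% of the values were positive and 2215 had an unadjusted p under 0.05 by edgeR. Of all genes tested, 1.24% were called higher and 0.313% lower. In 8 members every *hrde-1* library lay above every wild-type library (*nspd-4*, *nspd-6*, *nspd-9*, *nspd-10*, *ssp-19*, *ssp-37*, *ssq-1* and *ssq-3*), against 12.8% of all genes. The members that rose were *nspd-10* (2.89 ± 0.44, adjusted p = 0.00391), *ssp-19* (2.37 ± 0.53, adjusted p = 0.0433), *nspd-4* (1.66 ± 0.38, adjusted p = 0.0499) and *ssq-3* (1.47 ± 0.33, adjusted p = 0.0447).

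Only *nspd-10* of these was called whichever library was left out (log2 fold change between 2.52 and 3.60, adjusted p between 9.51e-05 and 0.0169). The calls of *nspd-4* and *ssp-19* were lost without any library except wild-type replicate 1, and that of *ssq-3* without any except wild-type replicate 1 and *hrde-1* replicate 1, with adjusted p-values up to 0.165, 0.132 and 0.170. Wild-type replicate 1 decided the count: without it 18 members were called higher, with a median of 1.77, and 6.12% of all genes were. By family, the medians in *hrde-1* were 0.83 for *ssp* (1 of 10 called), 1.21 for *ssq* (1 of 4), 0.78 for *sss-1* (not called) and 1.11 for *nspd* (2 of 9). The values of *ssq-1* (1.35 ± 0.33, adjusted p = 0.0691), *ssq-4* (1.07 ± 0.36, adjusted p = 0.159) and *ssq-2* (1.05 ± 0.32, adjusted p = 0.132) did not pass, nor did *ssp-10* (1.24 ± 0.43, adjusted p = 0.169), *ssp-37* (0.69 ± 0.24, adjusted p = 0.167) or *nspd-7* (0.34 ± 0.41, adjusted p = 0.680). This comparison and that of *hrde-2* share the wild-type libraries, and the families' medians in *hrde-2* were 2.64 for *ssp*, 2.51 for *ssq*, 2.74 for *sss-1* and 2.60 for *nspd*.

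Set directly against *hrde-1*, the *hrde-2* libraries were higher in 23 of the 24 members, every library of the first above every library of the second, as in 16.8% of all genes. The 23 included *ssp-9*, which passed the filter on low counts only through its *hrde-2* libraries and so was selected for high levels there. The test, fitted on genotype alone, called 14 members higher and 1 lower, *ssp-37*. The median log2 fold change was 1.48 against -0.00718 over all genes, of which 3.22% were called higher and 2.45% lower. By family, 3 of 10 *ssp*, all 4 *ssq*, *sss-1* and 6 of 9 *nspd* genes were called higher, with medians of 1.53, 1.27, 1.97 and 1.68. Leaving out *ssp-9*, which was not called, 14 of 23 members and 3 of 9 *ssp* genes were called higher, with a median of 1.47. The largest differences among those called were *ssp-33* (2.59 ± 0.50, adjusted p = 0.0138), *nspd-7* (2.03 ± 0.40, adjusted p = 0.0146) and *ssp-31* (2.01 ± 0.43, adjusted p = 0.0211), followed by *ssp-16* (1.98 ± 0.43, adjusted p = 0.0225) and *sss-1* (1.97 ± 0.39, adjusted p = 0.0161). The difference for *ssp-37* was -0.99 ± 0.24 (adjusted p = 0.0323), and leaving out any one of the mutant libraries ended that call (adjusted p up to 0.153). The members with the largest changes against wild-type, *nspd-10* (1.32 ± 0.37, adjusted p = 0.0539) and *ssp-19* (1.24 ± 0.44, adjusted p = 0.127), were not called between the mutants.

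Deviations of *hrde-1* and *hrde-2* libraries with the same replicate number correlated weakly, at 0.114 to 0.249. Between different numbers the values were -0.182 to 0.0581. Wild-type and *hrde-2* libraries of different numbers spanned a wider range, -0.400 to 0.394, so pairing by number is uncertain. When the 6 mutant libraries alone were fitted with replicate number as a block, all 24 members were called, 23 higher and *ssp-37* lower. Adjusted p-values in this edgeR fit lay between 2.60e-05 and 0.0445, and 8.96% of all genes were called higher. The 23 included *ssp-9*. The same 6 libraries without the block gave 21 members higher, beside 7.08% of all genes. The block in all 9 libraries gave 7, beside 2.18% of all genes. The count rested on single libraries: it was 1 without *hrde-1* replicate 1, 5 without *hrde-1* replicate 2, 6 without *hrde-1* replicate 3, 4 without *hrde-2* replicate 1, 0 without *hrde-2* replicate 2 (edgeR, with 20 members at an unadjusted p under 0.05) and 5 without *hrde-2* replicate 3, and it was 22 without wild-type replicate 1. The share of all genes called higher moved as well, from 0.236% without *hrde-2* replicate 2 to 8.23% without wild-type replicate 1. For the fit without *hrde-2* replicate 2, the number of all genes at an unadjusted p under 0.05 is not given here. In the main fit between the mutants, 2426 of the 12141 genes had an unadjusted p under 0.05 by edgeR, as had all 24 members. In 21 of the 24 members *hrde-2* replicate 2 was the highest of its group, and in 20 *hrde-1* replicate 1 was the lowest of its group.

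The members' shares of the counts of all 27 genes describe how the families differed once their common change is set aside. The *ssq* genes took 39.3% of them in wild-type libraries, 42.2% in *hrde-1* libraries and 38.2% in *hrde-2* libraries (means of 3), the *nspd* genes 33.9%, 33.6% and 39.3%, the *ssp* genes 21.2%, 19.2% and 15.4%, and *sss-1* 5.57%, 5.03% and 7.05%. The *ssp* share was lowest in *hrde-2*, at 14.6% to 16.8% in its libraries against 17.3% to 23.6% in the others, and this difference rested on *ssp-37*. The other 11 *ssp* genes took 14.4%, 9.57% and 13.2% of the counts in the wild-type libraries, between 12.5% and 13.4% in those of *hrde-1* and 15.5%, 13.8% and 13.8% in *hrde-2*. The share of *ssp-37* alone was 4.95%, 11% and 10.4% in the wild-type libraries, 8.96%, 4.37% and 5.32% in those of *hrde-1* and 1.33%, 0.871% and 1.10% in *hrde-2*.

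Single genes changed their place within the set. The share of *nspd-10* was 1.11%, 1.37% and 0.407% in wild-type and lay between 3.42% and 3.88% in all 6 mutant libraries. In the same way *ssp-19* went from 0.407% to 0.895% in wild-type to between 1.40% and 1.92% in the mutants. Both thus took a larger part of the families' counts in both mutants, with all mutant libraries above all wild-type libraries. In wild-type replicate 3, *nspd-10* and *ssp-19* had 2 counts each, so their lowest shares rest on few counts. The share of *ssp-33* was 1.42%, 1.00% and 1.63% in the wild-type libraries, 0.341%, 0.352% and 0.226% in those of *hrde-1* and 0.687%, 0.587% and 0.749% in *hrde-2*, lowest in *hrde-1*. The share of *nspd-7* was lower in *hrde-1* (2.99%, 3.10% and 4.45%) than in wild-type (5.47% to 6.10%) or *hrde-2* (4.91% to 5.74%). These genes were singled out after their values were seen, and the shares were not tested.

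**Figure D4:**
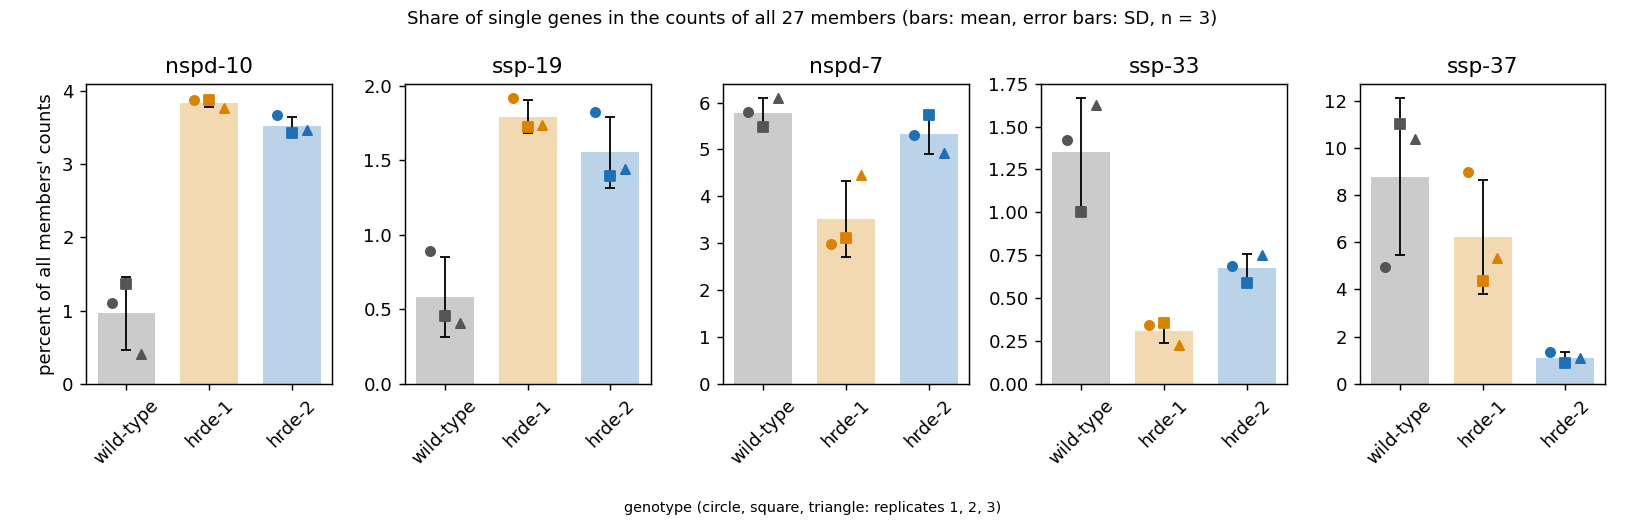
Share of 5 single genes in the counts of all 27 members (vertical axis in percent, from 0, a separate scale for each gene) by genotype. Bars are means with SD over 3 libraries, and circles, squares and triangles are replicates 1, 2 and 3. The shares of *nspd-10* and *ssp-19* are higher in both mutants than in wild-type, those of *ssp-33* and *nspd-7* are lowest in *hrde-1*, and that of *ssp-37* is lowest in *hrde-2*.

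Of the other sperm genes, the *msp* genes and those for sperm chromatin and phosphatases had medians close to those of these families. For comparison, 1.24% of all genes tested were called higher in *hrde-1*, and 7.57% higher and 4.25% lower in *hrde-2*. In *hrde-1*, 2215 of the 12141 genes had an unadjusted p under 0.05 by edgeR. Of 31 *msp* genes 27 were tested, with medians of 1.15 in *hrde-1* and 2.60 in *hrde-2* against wild-type, and 0 and 26 were called higher (in *hrde-1*, 18 had an unadjusted p under 0.05 by edgeR). All 8 genes for sperm chromatin and sperm phosphatases, among them the sperm histone-like genes *spch-1*, *spch-2* and *spch-3*, were called in *hrde-2* with a median of 2.56, and 1 was called in *hrde-1*. Of the *spe* genes, which act in sperm formation and function, 16 of 29 were tested and 9 were called higher in *hrde-2* and 2 in *hrde-1*, with medians of 2.39 and 0.77. The *spe* values in *hrde-2* ranged from -0.21 to 2.93. The summed level in *hrde-2* over wild-type was 2.06 for the *spe* genes, against 4.19 to 6.71 for the families. It was 6.12 for *msp*, 6.30 for sperm chromatin and phosphatases, 4.96 for MSP domain proteins and 2.76 for regulators of the sperm programme. Without wild-type replicate 1 these ratios were 1.90 (*spe*), 11.9, 10.1, 8.35 and 2.53 in the same order, against 6.13 to 12 for the families. Of 4 genes of MSP domain proteins, 2 were tested, and both were called in *hrde-2* and neither in *hrde-1*. Of 6 regulators of the sperm programme, 3 were called higher in *hrde-2* (*alg-3*, *alg-4* and *fog-3*) and 2 in *hrde-1* (*alg-3* and *fog-3*). The other groups of nematode-specific peptides, chosen by name like *nspd*, had medians of 0.28 in *hrde-1* and -0.59 in *hrde-2*, with 4 of 35 tested genes called higher in *hrde-1*, and 7 higher and 4 lower in *hrde-2*.

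Markers of other cells were measured beside these results. Of all 12141 genes tested, 2215 had an unadjusted p under 0.05 by edgeR in *hrde-1* against wild-type. The number was 3376 in *hrde-2* against wild-type and 2426 between the mutants. Called lower were 4.25% of all genes in *hrde-2* against wild-type and 2.45% in *hrde-2* against *hrde-1*. Markers of male neurons and male soma summed to between 0.600 and 2.27 CPM in every library, 3 of the 9 genes (*lov-1*, *cwp-2* and *cwp-3*) had no count in any library, and the highest value of any of them was 1.43 CPM. Moulting genes of late larvae summed to between 27.2 and 85.5 CPM, highest in *hrde-2* replicate 2, and 0 of 10 were called in either mutant, where 0 had an unadjusted p under 0.05 by edgeR in *hrde-1* and 1 in *hrde-2*. The 14 oocyte and eggshell genes summed to 3432 to 8265 CPM in wild-type, 8614 to 9489 in *hrde-1* and 5444 to 7787 in *hrde-2*, where *perm-2* fell, and 0 were called in *hrde-1* (2 at an unadjusted p under 0.05 by edgeR). The 6 vitellogenins, the yolk genes of the intestine, summed to 48382 to 66286 CPM in wild-type, 54863 to 92544 in *hrde-1* and 27616 to 43249 in *hrde-2*, where *vit-2* and *vit-6* fell. In *hrde-2* against *hrde-1*, 4 of the 6 vitellogenins fell (*vit-2*, *vit-4*, *vit-5* and *vit-6*). All 14 oocyte and eggshell genes had negative values in that comparison, with a median of -0.39, and *perm-2* fell. The moulting genes had a median of 1.05 there, with 0 called and 0 at an unadjusted p under 0.05 by edgeR. The part of the oocyte, yolk and moulting levels in the results on the sperm families was not tested.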

How the data were processed

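Polyadenylated RNA of 9 whole-worm libraries was sequenced as single-end reads. The authors used Trimmomatic 0.39 for trimming and HISAT2 2.2.1 for alignment to WormBase release 258, and deposited whole-number counts per gene over exons from featureCounts (Subread 2.0.1), without normalization. Per the file headers, no strand option was set and reads fitting several places or genes were not counted, so antisense reads add to a gene and near-identical members lose reads.

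The sample titles gave each library its group and replicate number, and the labels call the libraries biological triplicates. Symbols were taken from Ensembl release 115, and 28127 identifiers had one. *ssp-11* was named from RefSeq, since Ensembl gave its identifier the symbol of *ssp-9*.

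Counts were fitted in R 4.3.3 with edgeR 4.0.16 (filterByExpr with a minimum count of 10, TMM scaling, robust quasi-likelihood fit of genotype over all 9 libraries, two-sided F tests). Benjamini-Hochberg adjustment ran over 12141 genes, and an adjusted p under 0.05 was called. SEs were derived from the F statistic, and the biological coefficient of variation was 27.0%. The fitting script was tested on simulated data. DESeq2 1.42.0, other scalings, filters, sample subsets, a block on replicate number and leaving out each library were alternatives. Deviations from the genotype means correlated at 0.114 to 0.249 between *hrde-1* and *hrde-2* libraries of the same replicate number and at -0.182 to 0.0581 between different numbers. The main test between the mutants used genotype alone and left out replicate number, which entered only in the block alternatives. Between wild-type and mutant libraries of the same number the values were -0.0931 to -0.0442 for *hrde-1* and -0.253 to 0.199 for *hrde-2*. Different numbers gave -0.0463 to 0.0942 and -0.400 to 0.394 in the same order, so pairing by number is uncertain.

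Every member is named. Values of all 9 libraries are given for the 3 members of each family with the highest mean CPM, for members with a sign opposite to the rest, and for members called in *hrde-1*. The members and gene lists were chosen with earlier results of these data known.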

Additional observations from a re-analysis of the deposited data

How the results depend on the processing

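In *hrde-2* against wild-type, the count of members called higher stayed between 19 and 23 in all alternatives run, against 21. The share of all genes called higher, 7.57% in the main fit, moved at an adjusted p under 0.05. It was lowest, at 4.14%, when *hrde-2* replicate 2 was dropped (19 members). The highest share, 13.4%, came from the fit lacking wild-type replicate 1 (22 members). The count of 23 came from 26 tested members with no filter on low counts (5.99%) and from the DESeq2 Wald test (10.3%). The count in *hrde-1* against wild-type (4) was less stable. Beside the share of all genes called higher (1.24%), it was 2 with library size alone (1.17%), 9 of 26 tested with no filter on low counts (2.40%), 1 of 23 tested with only the 6 libraries compared (0.834%), 1 with the replicate block (1.05%), 7 with the DESeq2 Wald test (3.39%), 1 at an adjusted p under 0.01, and between 1 and 18 with single libraries left out. Between the mutants (14 higher, beside 3.22% of all genes), it was 7 with the replicate block in all 9 libraries (2.18%), 23 with the block in the 6 mutant libraries (8.96%), an alternative added after seeing the data, 1 at an adjusted p under 0.01, and between 0 and 22 with single libraries left out. The 23 included *ssp-9*, which passed the filter only through its *hrde-2* libraries. The block with all 9 libraries gave 20 members in *hrde-2* against wild-type (7.12%). The *hrde-1* and wild-type libraries shared only numbers.

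With single libraries left out, the *ssp* median lay between 0.587 and 1.89 in *hrde-1* and between 2.31 and 3.58 in *hrde-2*, and the *nspd* median between 2.37 and 3.43 in *hrde-2*, each highest without wild-type replicate 1. Of the single members, *ssp-9* in *hrde-1* ranged from -0.25 (adjusted p = 0.920), a change of sign, without *hrde-1* replicate 3 to 2.40 without wild-type replicate 1. Removing ribosomal RNA genes, which took 19.4% to 31.4% of counts, raised summed levels by construction, to 73.9 CPM (*hrde-1*) and 165 CPM (*hrde-2*) for *ssp*, 166 and 408 CPM for *ssq*, 19.4 and 75.6 CPM for *sss* and 133 and 423 CPM for *nspd*. The wild-type sums, not listed here, rise by construction too. The members' median log2 fold change against wild-type stayed at 1.03 in *hrde-1* and 2.60 in *hrde-2* with these genes removed. Without *ssp-37*, left out after seeing the data, the summed *ssp* level in *hrde-1* was 38.2 CPM. Over all genes, library size alone gave 953 higher and 323 lower calls in *hrde-2* against wild-type in place of 919 and 516, and 517 and 253 between the mutants in place of 391 and 297. The cause of the other changes was not tested. At most 11 counts lay in any library for *ssp-32* and *ssp-36*, which were not tested, so that depth limits what can be said of them.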
